A study of Mus musculus with 6 samples.

Results

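The 10 genes described here mark the sinusoidal endothelial cell of the liver: *Stab1*, *Stab2*, *Lyve1*, *Clec4g*, *Fcgr2b*, *Pecam1*, *Kdr*, *Oit3*, *Dnase1l3* and *Gpr182*. They were taken by gene symbol from the 56691 genes of the deposited table, and all 10 were found. They were chosen by a measured difference, since a mixed list of stellate and endothelial genes had been high in KPF in earlier work on these same libraries, so the difference between KPF and WPF is given below for them as a description, with no test. The libraries are whole liver RNA of pregnant dams, all fed a high-fructose diet (HFrD) during pregnancy. The 3 KPF dams were h*Chrebp* KO mice, that is *Chrebp* flox/flox mice with 1 copy of an Alb-Cre transgene (Cre +/-), in which the albumin promoter directs the deletion to hepatocytes, so that endothelial cells are not its target. The 3 WPF dams are labelled wild type, and the study's methods describe them as *Chrebp* flox/flox mice without Cre. The age of the dams is not given in the sources used here, and each library is named by its group and the replicate number of its label, KPF-1 to KPF-3 and WPF-2 to WPF-4.

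Liver sinusoids are lined by endothelial cells with open pores and no continuous basement membrane, so that plasma reaches the hepatocytes directly. These cells clear waste from the blood by receptor-mediated endocytosis, and most of the genes described here belong to that task. *Stab1* and *Stab2* encode the stabilins, large scavenger receptors, and *Lyve1* encodes a hyaluronan receptor that is shared with lymphatic endothelium and some macrophages. *Clec4g* encodes a C-type lectin, *Fcgr2b* the inhibitory receptor for IgG and its immune complexes, *Dnase1l3* a secreted nuclease, *Oit3* a protein with a zona pellucida domain, and *Gpr182* a receptor that scavenges chemokines. *Pecam1*, an adhesion molecule of cell junctions, and *Kdr*, the main signalling receptor for VEGF, are found on endothelium in general.

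The promoters of the stabilins and of *Clec4g* are shown because *Stab1* and *Stab2*, related receptors of the same cell, had log2 fold changes of opposite sign, and *Clec4g* had the highest mean level and the smallest spread. The sequences are from RefSeq on GRCm38.p6, which is not the build of the deposited coordinates, and they cover the 250 bases before the start of transcription, written 5′ to 3′ on the strand of the gene. They were matched by symbol, and 5 of the 10 genes had an entry. Capitals mark the ETS-type motif AGGAAG on either strand, where overlapping copies are all counted.
Stab1, chr14:31168642-31168891, minus strand: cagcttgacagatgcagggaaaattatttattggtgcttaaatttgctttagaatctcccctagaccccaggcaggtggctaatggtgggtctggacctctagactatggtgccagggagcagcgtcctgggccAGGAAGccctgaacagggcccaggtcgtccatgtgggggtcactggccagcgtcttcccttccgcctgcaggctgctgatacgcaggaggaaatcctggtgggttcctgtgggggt
Stab2, chr10:87007943-87008192, minus strand: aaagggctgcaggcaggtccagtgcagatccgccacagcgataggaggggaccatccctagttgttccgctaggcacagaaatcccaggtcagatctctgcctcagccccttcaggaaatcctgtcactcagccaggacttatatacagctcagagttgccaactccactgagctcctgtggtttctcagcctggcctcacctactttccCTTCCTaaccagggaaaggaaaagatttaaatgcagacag
Clec4g, chr8:3720652-3720901, minus strand: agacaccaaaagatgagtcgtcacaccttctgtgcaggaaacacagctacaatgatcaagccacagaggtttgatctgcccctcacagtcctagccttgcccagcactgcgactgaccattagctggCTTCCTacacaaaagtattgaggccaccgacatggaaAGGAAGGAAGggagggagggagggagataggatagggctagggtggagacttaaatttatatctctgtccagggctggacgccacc

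Each of these promoters held AGGAAG. The motif began 116 bases before the start in *Stab1*, 40 bases before it in *Stab2*, and 123, 86 and 82 bases before it in *Clec4g*, and the promoters of *Fcgr2b* and *Kdr* did not hold it. Among all 32851 promoters of the table, read over 250 bases before and 50 after the start, 35.4% held AGGAAG on either strand, so 3 of 5 describes a common motif. Other motifs were searched in the same way on both strands, and none of them was in the 5 promoters. These were AGATAA (held by 11.2% of all promoters) and TGATAA (held by 9.05%), both read by GATA factors, the longer ETS motif CCGGAAG (held by 8.86%), the E-box CACGTG (held by 7.15%), the AP-1 motif TGACTCA (held by 5.20%) and the KLF motif CCACACC (held by 7.58%). No match says only that these letters are not in this window.

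The libraries held 10694496 to 11567941 counted reads in KPF and 12988865 to 14496630 in WPF, without overlap. *Mlxipl*, the gene of ChREBP, stood at 31.8, 126 and 138 FPKM (reads scaled to the exonic length of the gene and to the counted reads of the library) in KPF-1, KPF-2 and KPF-3 and at 155, 247 and 187 FPKM in WPF-2, WPF-3 and WPF-4, lower in every KPF library. The deleted part is exon 2, while the reads were counted over the whole gene, and its log2 fold change of -0.84 (standard error 0.53) did not pass edgeR's test (adjusted p = 0.584). KPF-2 stands apart by striated muscle genes, with 0.343% of its reads on 6 such genes against 0.00139% to 0.00582% in the other libraries. Values without KPF-2 are therefore given beside the results. KPF-1 and KPF-2 also stand apart in markers of connective tissue, with values given further on.

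The sinusoidal endothelial genes were measured at low levels in whole liver, and the summed level of the 10 overlapped between the groups. The sum was 49.96, 38.9 and 34.1 FPKM in KPF-1, KPF-2 and KPF-3 and 31.0, 41.2 and 43.2 FPKM in WPF-2, WPF-3 and WPF-4. The highest library was KPF-1 and the lowest WPF-2, and the other KPF libraries lay within the range of WPF. In bulk tissue, fewer cells of a type and less RNA per cell cannot be told apart.

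**Figure D1:**
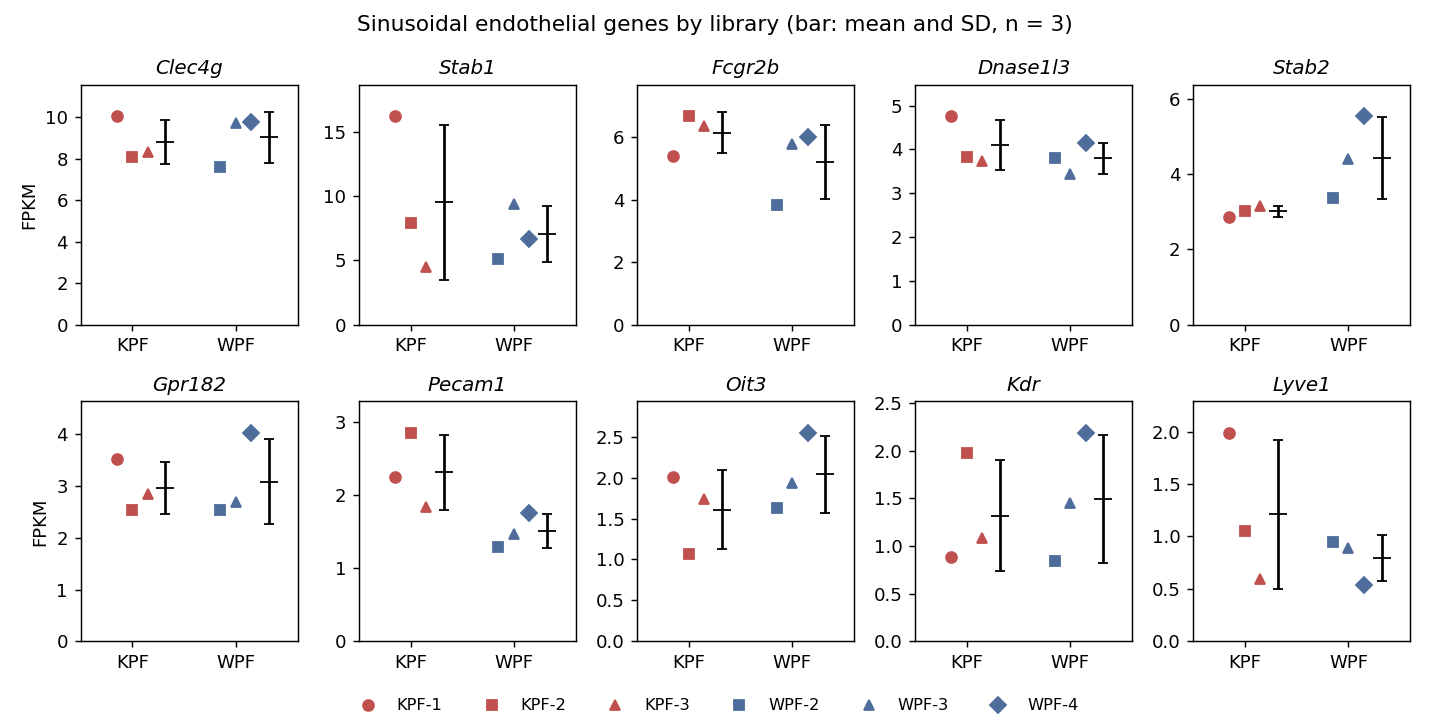
FPKM of each of the 10 genes (vertical axis, from 0) in the 3 KPF and 3 WPF libraries, with the mean and SD of each group in black (n = 3). *Pecam1* is higher in every KPF library and *Stab2* lower, while *Stab1* and *Lyve1* are highest in KPF-1 and the other genes overlap between the groups.

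By length-scaled level the order of the 10 genes was *Clec4g*, *Stab1*, *Fcgr2b*, *Dnase1l3*, *Stab2*, *Gpr182*, *Pecam1*, *Oit3*, *Kdr* and *Lyve1*, with means over the 6 libraries from 8.93 FPKM down to 1.00 FPKM. Neighbours in this order were compared within each library by an exact two-sided sign-flip permutation test of log2(FPKM + 0.1), and none of the 9 pairs passed after Benjamini-Hochberg adjustment (adjusted p of the exact test from 0.281 to 0.906). With 6 libraries a lone pair cannot pass this adjustment, even where its difference is larger than its SD. *Fcgr2b* was above *Dnase1l3* in 6 of 6 libraries by 0.50 ± 0.33 on the log2 scale (SD, n = 6), with an exact p of 0.0312, the smallest that 6 libraries can give, and an adjusted p of 0.281. *Pecam1* and *Oit3* were the closest pair, 0.06 ± 0.68 apart on the log2 scale (SD, n = 6), with *Pecam1* higher in 3 of 6 libraries (exact permutation test, adjusted p = 0.906). Across the whole order the levels did separate, since the lowest value of *Clec4g*, 7.63 FPKM, lay far above the highest values of *Pecam1*, *Oit3*, *Kdr* and *Lyve1*, at 2.85, 2.55, 2.19 and 1.99 FPKM.

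*Lyve1* was the gene with the fewest reads, from 20 in KPF-3 to 62 in KPF-1. The count of 20 has an exact Poisson 95% interval of 12.2 to 30.9 reads, which covers counting error only. Its mean of 1.00 FPKM lay just past the minimum of 1 FPKM that a gene needed to enter the test, and it passed through the KPF libraries, whose mean was 1.21 FPKM against 0.793 FPKM in WPF. *Oit3* had 34 to 103 reads and the other 8 genes 86 to 1782.

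The 2 groups were set against each other in edgeR's quasi-likelihood model of the counts. It covered the 10866 genes whose FPKM averaged 1 or more, and all 10 genes were among them. The log2 fold change of KPF over WPF was above 0 for 7 and below 0 for 3, with a median of 0.16, beside a median of 0.02 and 51.4% above 0 for all tested genes. It ran from -0.41 for *Stab2* to 0.75 for *Pecam1*, with standard errors between 0.18 and 0.52. Without KPF-2, 8 were above 0 and the median was 0.25. At an adjusted p under 0.05 edgeR called 0 of the 10866 genes, with 1176 at an unadjusted p under 0.05, while DESeq2 called 156 of them. Since the direction in this contrast was known when the 10 genes were picked, no call is made for them and nothing is drawn from these counts.

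How many of the 10 genes were above 0 depended on the scaling. The TMM factors, which edgeR uses to bring libraries to a common scale, were 0.8995 to 0.9964 in KPF and 0.888 to 1.18 in WPF, and reads scaled by them to a common library size are called normalised CPM. With library totals in their place 5 of the 10 genes were above 0, with a median of 0.04, and the median of all tested genes moved to -0.12. *Clec4g* and *Gpr182* changed sign, from 0.10 and 0.09 to -0.03 and -0.06.

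Among the scavenger receptors, the stabilins had log2 fold changes of opposite sign when all 6 libraries were used. *Stab2* (ENSMUSG00000035459, chromosome 10, 86677062 to 86843889, minus strand, GRCm39) stood at 26.0, 26.9 and 31.1 normalised CPM in KPF-1, KPF-2 and KPF-3 and at 33.5, 36.0 and 41.7 in WPF-2, WPF-3 and WPF-4. All 3 KPF values lay under all 3 WPF values, as for 8.15% of all tested genes. KPF averaged 28.0 ± 2.71 CPM against 37.0 ± 4.24 CPM for WPF (SD, n = 3 each). The log2 fold change was -0.41 (standard error 0.19), and -0.38 without KPF-2. Leaving out any 1 library kept it between -0.49 and -0.32.

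*Stab1* (ENSMUSG00000042286, chromosome 14, 30860970 to 30890598, minus strand) was at 172, 82.5 and 51.7 normalised CPM in KPF and at 59.9, 90.4 and 59.1 in WPF-2, WPF-3 and WPF-4. KPF-1 alone lay above the WPF libraries, and KPF-3 lay below all of them. Its log2 fold change of 0.55 (standard error 0.44) became 0.68 without KPF-2 and -0.06 without KPF-1. The ratio of *Stab1* to *Stab2* in FPKM was 5.64, 2.61 and 1.42 in KPF-1, KPF-2 and KPF-3 and 1.52, 2.14 and 1.21 in WPF-2, WPF-3 and WPF-4. This ratio, chosen after the values were seen, was highest in KPF-1 and overlapped between the groups. The 3′ end of *Stab1* shares 112 bases with *Nt5dc2* on the other strand, a gene with 24 to 92 reads, and the strand setting of the counting is not given in the sources used here.

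*Lyve1* (ENSMUSG00000030787, chromosome 7, 110449814 to 110462446, minus strand) had a pattern like that of *Stab1*. It was at 5.99, 3.14 and 1.95 normalised CPM in KPF and at 3.15, 2.42 and 1.36 in WPF, with KPF-1 above all other libraries. The log2 fold change was 0.68 with the largest standard error of the group, 0.52, and it was 0.78 without KPF-2 and 0.15 without KPF-1. Thus the higher mean of *Stab1* in KPF rested on KPF-1, and that of *Lyve1* rested largely on it.

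*Clec4g* (ENSMUSG00000074491, chromosome 8, 3757064 to 3770651, minus strand) varied least. It was at 25.6, 20.3 and 23.1 normalised CPM in KPF and at 21.4, 22.4 and 20.7 in WPF, a log2 fold change of 0.10 (standard error 0.18), and 0.17 without KPF-2. *Fcgr2b* (ENSMUSG00000026656, chromosome 1, 170786186 to 170804116, minus strand) was at 32.3, 39.4 and 41.5 normalised CPM in KPF and at 25.2, 31.3 and 29.9 in WPF. On this scale every KPF library was above every WPF library, as for 7.55% of all tested genes, whereas in FPKM the groups overlapped, with 5.41 FPKM in KPF-1 and 6.00 FPKM in WPF-4. Its log2 fold change was 0.39 (standard error 0.20), 0.35 without KPF-2 and 0.24 with library totals. *Fcgr2b* is closely similar to other Fc receptor genes in its extracellular part, so that reads shared with them could have been lost or misplaced.

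*Dnase1l3*, *Gpr182* and *Oit3*, the secreted and chemokine-binding genes, overlapped between the groups. Their log2 fold changes were 0.23 (standard error 0.20) for *Dnase1l3*, 0.09 (0.24) for *Gpr182* and -0.19 (0.33) for *Oit3*. Without KPF-2 the values were 0.29 for *Dnase1l3* and 0.20 for *Gpr182*. *Dnase1l3* ranged from 3.43 to 4.76 FPKM and *Gpr182* from 2.53 to 4.03 FPKM over the 6 libraries. *Oit3* was lowest in KPF-2, at 1.07 FPKM against 1.63 to 2.55 FPKM in the others, and without KPF-2 its log2 fold change was 0.04. *Gpr182* overlaps *Zbtb39* on the other strand by 74 bases.

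Of the genes found on all endothelium, *Pecam1* (ENSMUSG00000020717, chromosome 11, 106545043 to 106641454, minus strand) differed most. It was at 14.5, 18.1 and 12.9 normalised CPM in KPF-1, KPF-2 and KPF-3 and at 9.11, 8.54 and 9.44 in WPF-2, WPF-3 and WPF-4. On this scale every KPF library was above every WPF library, as for 7.55% of all tested genes, and the WPF libraries lay close together. In FPKM the order held by a small gap, with 1.83 FPKM in KPF-3 and 1.76 FPKM in WPF-4. KPF averaged 15.1 ± 2.69 CPM against 9.03 ± 0.451 CPM for WPF (SD, n = 3 each), or 1.68-fold higher in KPF by the fit, a log2 fold change of 0.75 (standard error 0.22). It was 0.59 without KPF-2 and 0.78 without KPF-1, and between 0.59 and 0.85 with any 1 library left out. With library totals it was 0.62.

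*Kdr* (ENSMUSG00000062960, chromosome 5, 76093487 to 76139118, minus strand) did not follow *Pecam1*. It was at 8.30, 18.2 and 11.002 normalised CPM in KPF and at 8.67, 12.2 and 17.0 in WPF, with the highest value in KPF-2 and the lowest in KPF-1, whereas in FPKM the highest was WPF-4, at 2.19, and the lowest WPF-2, at 0.84. Its log2 fold change was -0.02 (standard error 0.37), and -0.40 without KPF-2. Together with *Oit3*, *Kdr* is the gene that leaving out KPF-2 moved most.

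**Figure D2:**
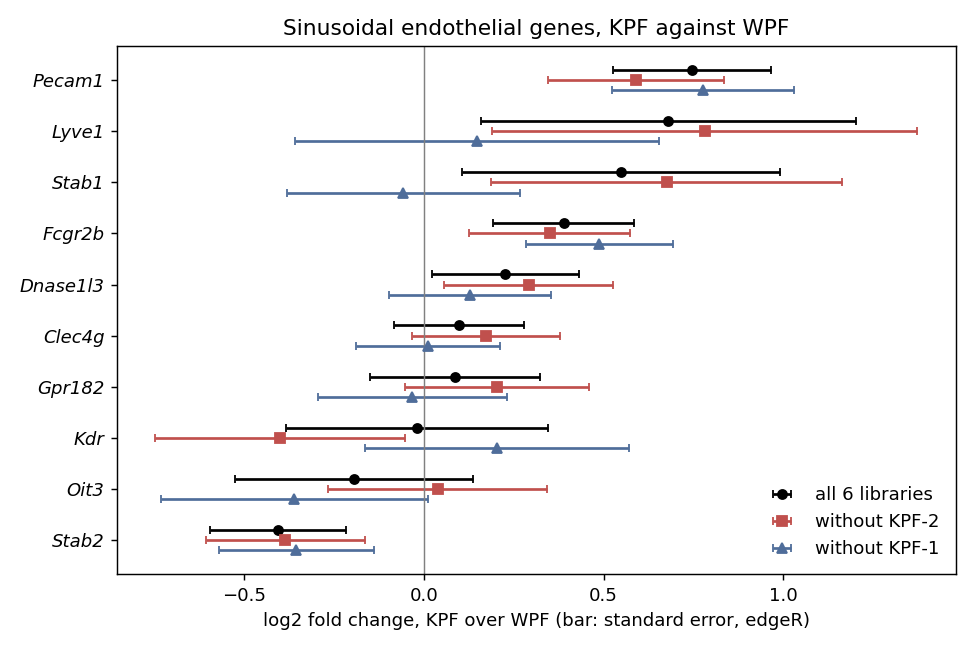
Log2 fold change of KPF over WPF from edgeR (horizontal axis; bars are standard errors) for each of the 10 genes, with all 6 libraries (black circles), without KPF-2 (red squares) and without KPF-1 (blue triangles). *Pecam1*, *Fcgr2b*, *Lyve1*, *Dnase1l3* and *Clec4g* stay above 0 in each, *Clec4g* at only 0.01 without KPF-1, and *Stab2* stays below 0. *Stab1* goes from 0.55 to -0.06 without KPF-1 and *Kdr* from -0.02 to -0.40 without KPF-2.

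The 10 genes did not vary as a single group across the libraries. Each gene was centred on its mean log2 normalised CPM, and the mean of the centred values was 0.26, 0.04 and -0.04 in KPF-1, KPF-2 and KPF-3 and -0.13, -0.08 and -0.06 in WPF-2, WPF-3 and WPF-4. KPF-1 held the highest value of 5 of the 10 genes and the lowest of 2. *Clec4g* stayed closest to the mean profile, with a mean absolute distance of 0.09 on the log2 scale over the 6 libraries, followed by *Dnase1l3* with 0.13 and *Gpr182* with 0.14. *Stab1*, *Lyve1* and *Kdr* stood farthest from it, each with 0.39. The closest pair was *Clec4g* and *Gpr182*, 0.12 apart, and the most distant *Lyve1* and *Kdr*, 0.71 apart.

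By the same distance, the genes outside the group closest to its mean profile were *Lipt1*, *Nup50*, *Tgif1*, *Nudcd3*, *Samd4b*, *Rexo4*, *Prpf40b*, *Gps1*, *Myadm* and *Glrx3*, at 0.02 to 0.06 on the log2 scale over 6 libraries. None of them was on an endothelial list. Their own log2 fold changes lay between 0.10 and 0.28. This follows from choosing them by their profile over these same libraries, so nothing is drawn from it.

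A wider list of 112 other endothelial genes was used to describe the rest of the endothelial program in KPF and WPF. It was chosen with earlier results of these data known, so its calls are not independent of them. Of the 112 genes, 65 reached a mean of 1 FPKM and were tested. Of these, 44 had a log2 fold change above 0 and 21 below 0, with a median of 0.07. Without KPF-2, 39 were above 0 and the median was 0.13. Without KPF-1 these were 34 and 0.09, without both 32 and -0.01, and with library totals 30 and -0.04. A gene is called here at an unadjusted p under 0.05 together with a change of at least 1.5-fold. By this rule 6 of the 65 were higher, beside 5.83% of all tested genes, and 1 was lower, beside 3.98%. The called genes made up 10.8% of the 65, against 9.81% of all tested genes. Adjusted over all 10866 genes, edgeR's quasi-likelihood test called 0 of the 65 (smallest adjusted p = 0.430), with 8 at an unadjusted p under 0.05. DESeq2 called 1 at an adjusted p under 0.05, *Ccl21a*.

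The called genes were *Cldn5*, *Sox18*, *Ltbp4*, *Sparc*, *Reln* and *Ccl21a*, which were higher in KPF, and *Nid2*, which was lower. *Reln* had a mean under 1 FPKM in WPF and *Nid2* in KPF, so that each entered the test through the group in which it was high. Nothing is therefore drawn from the counts of called genes. *Sparc*, a matrix protein, stood at 16.9, 15.4 and 8.24 FPKM in KPF-1, KPF-2 and KPF-3 and at 6.16, 8.21 and 8.45 FPKM in WPF-2, WPF-3 and WPF-4, so that KPF-3 was near WPF. *Ccl21a*, the chemokine of lymphatic endothelium, stood at 6.23, 26.7 and 0.40 FPKM in KPF-1, KPF-2 and KPF-3 and at 0.62 to 1.84 FPKM in WPF. It was high in KPF-1 and KPF-2 alone, and its copies in the genome are closely similar. Without KPF-1 and KPF-2 together, 0 genes of the list were called higher and 1, *Fcgrt*, lower; here KPF-3 stood alone and was taken to vary like the other libraries.

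**Figure D3:**
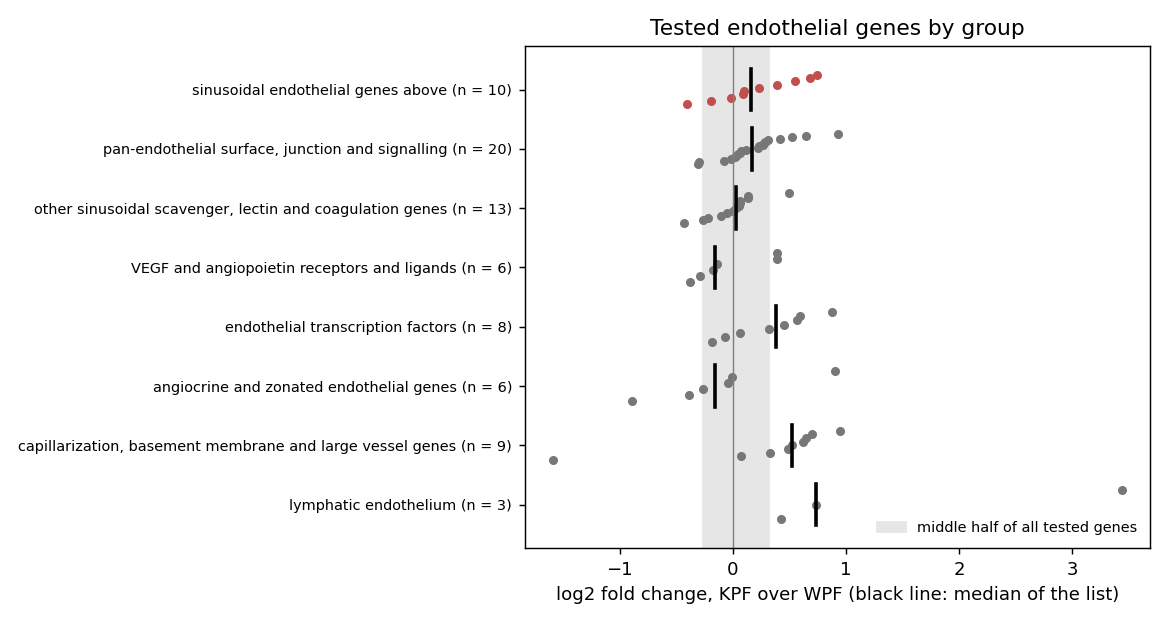
Log2 fold change of KPF over WPF (horizontal axis) for the 10 sinusoidal endothelial genes (red) and for the 65 tested genes of the wider list in 7 groups (grey), with the median of each group as a black line. The shaded band holds the values of all tested genes between the lower and upper quartile, -0.26 to 0.32, and the largest value, 3.44, is *Ccl21a*.

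Genes shared by all endothelium had a median log2 fold change of 0.17 over 20 tested genes, 16 of them above 0. *Eng*, the most abundant of them, had 13.9, 12.8 and 8.03 FPKM in KPF and 7.46, 12.1 and 12.2 FPKM in WPF, and its log2 fold change was 0.26 (standard error 0.24). *Cldn5*, a tight junction protein, was the gene called in this group, at 0.93 (0.33). *Tie1*, a receptor of the angiopoietin system, and *Mmrn2*, an endothelial matrix protein, were at 0.53 (0.24) and 0.65 (0.31). Without KPF-2, and likewise with library totals, the median of this group was 0.02, with 10 of 20 genes above 0.

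Other sinusoidal scavenger, lectin and coagulation genes had a median of 0.03 over 13 tested genes, 8 of them above 0, and none was called. The median was 0.14 without KPF-2, and with library totals it was -0.11 with 2 genes above 0. *Mrc1*, the mannose receptor, was at -0.43 on the log2 scale (standard error 0.20), the direction of *Stab2*. In normalised CPM it was lower in every KPF library than in every WPF library, as for 8.15% of all tested genes. Of the 65 tested genes of the wider list it was the 1 with this order. The opposite order, every KPF library above every WPF library, held for 10 of the 65, *Reln* among them, beside 7.55% of all tested genes. *Scarf1*, the most abundant, was at 0.06 (0.37), *Colec12* at 0.50 (0.25) and *Fcgrt*, the IgG transport receptor, at -0.22 (0.27). Without KPF-2 these were -0.27, 0.26 and -0.52.

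VEGF and angiopoietin genes had a median of -0.16 over 6 tested genes, and -0.29 without KPF-2, and none was called. *Vegfa*, the ligand of *Kdr*, stood at 44.5, 77.2 and 45.4 FPKM in KPF and at 52.8, 92.6 and 94.9 FPKM in WPF, and its log2 fold change was -0.38 (standard error 0.30), and -0.65 without KPF-2. *Nrp1*, a co-receptor for VEGF, was at 0.39 (0.20). *Vegfd*, a ligand for the lymphatic VEGF receptor, was at 0.39 (0.44), and at -0.24 without KPF-1.

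Endothelial transcription factors had a median of 0.38 over 8 tested genes, 6 of them above 0, and 0.36 without KPF-2. *Sox18* was the gene called, at a log2 fold change of 0.88 (standard error 0.37). *Maf*, a factor of sinusoidal endothelium and macrophages, was at 0.45 (0.19), *Fli1* at 0.59 (0.33), and *Klf2*, which responds to flow and was the most abundant, at 0.06 (0.28). Without KPF-2 *Klf2* was at -0.16 and *Fli1* at 0.35. Angiocrine and zonated genes had a median of -0.16 over 6 tested genes, and -0.07 without KPF-2. *Ltbp4*, a binding protein of latent TGF-beta that fibroblasts make too, was called higher, at 0.90 (0.33). *Wnt2*, a Wnt ligand of sinusoidal endothelium, was at -0.89 (0.45), *Bmp2* at -0.39 (0.29) and *Ephb4*, the most abundant, at -0.01 (0.25). *Wnt2* had a mean of 0.683 FPKM in KPF and entered the test through WPF, where its mean was 1.36 FPKM.

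Genes of basement membrane, capillarization and large vessels had the highest median among the larger groups, 0.53 over 9 tested genes, 8 of them above 0. *Sparc* was called higher, at 0.95 (standard error 0.27), and *Nid2*, nidogen-2, lower, at -1.59 (0.60). *Col4a1*, a chain of type IV collagen, was at 0.70 (0.33), and *Plvap*, the diaphragm protein of endothelial pores and the most abundant, at 0.33 (0.36). The median was 0.54 without KPF-2 and -0.02 without KPF-1, and without KPF-1 *Col4a1* was at 0.27 and *Plvap* at -0.06. The lymphatic list had 3 tested genes with a median of 0.73, of which *Ccl21a*, at 3.44 (1.19), and *Reln*, which stellate cells make too, at 0.73 (0.26), were called. *Prox1*, also a hepatocyte factor, was at 0.42 (0.29). Without KPF-2 the median was 0.87, *Ccl21a* was at 1.72 and *Prox1* at 0.15. Both medians are the value of *Reln*, which entered the test through KPF, so nothing is drawn from them.

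Markers of the other cells of the liver were summed in each library beside the sinusoidal endothelial genes. Connective tissue fibroblast markers were at 34.7, 30.2 and 11.2 summed FPKM in KPF-1, KPF-2 and KPF-3 and at 5.45 to 7.66 in WPF, so that every KPF library was higher. *Dpt*, the most abundant, was at 13.1, 11.3 and 3.21 FPKM in KPF and at 1.25 to 2.04 FPKM in WPF. Of the 8 genes 5 were tested, and 3 of these, *Col1a1*, *Col1a2* and *Thy1*, had a mean under 1 FPKM in WPF and entered through KPF, so their calls are not counted. KPF-1 and KPF-2, the libraries highest in these markers, were also the highest in *Pecam1*, *Sparc* and *Ccl21a*, and KPF-1 was the highest in *Stab1* and *Lyve1*. Other genes went the opposite way. In normalised CPM, KPF-1 was the lowest library for *Stab2* (26.0) and *Kdr* (8.30), and KPF-2 for *Oit3* (3.05) and *Clec4g* (20.3). The part of such tissue in these values was not tested.

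Hepatic stellate cell markers ranged from 103 to 266 summed FPKM in KPF and from 106 to 147 in WPF. Of 10 tested genes 9 were above 0, with a median of 0.50, and 0.46 without KPF-2. *Bgn*, *Des* and *Reln* were called higher, 3 of 10 beside 5.83% of all tested genes. *Reln*, with a mean under 1 FPKM in WPF, entered the test through KPF, so nothing is drawn from this count. *Des*, which striated muscle shares, made up 129 of the 266 FPKM in KPF-2. Without *Des*, left out after its values were seen, the sums were 197, 138 and 100.5 FPKM in KPF-1, KPF-2 and KPF-3 and 103 to 145 FPKM in WPF, so that KPF-1 alone was above WPF. The median of the 9 tested genes other than *Des* was 0.46, and 0.41 without KPF-2. Kupffer cell and macrophage markers, which matter here because macrophages can express *Stab1*, *Lyve1* and *Fcgr2b*, ranged from 119 to 154 in KPF and from 100 to 267 in WPF, with 4 of 12 tested genes above 0, none called and a median of -0.19. The sums overlapped between the groups, and the part of macrophages in the values of *Stab1*, *Lyve1* and *Fcgr2b* was not tested.

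Hepatocyte markers ranged from 37746 to 45428 summed FPKM in KPF and from 52948 to 72742 in WPF, without overlap and led by *Alb*, while their median log2 fold change over 8 genes was -0.11 with none called. Mesothelium markers ranged from 1.36 to 5.16 in KPF and from 0.43 to 1.29 in WPF, and adipocyte markers from 2.42 to 12.1 and from 2.26 to 2.70, with 1 tested gene each, *Msln* and *Fabp4*. *Fabp4* was called higher, and *Msln*, with a mean under 1 FPKM in WPF, entered the test through KPF. *Lep* had no read in any library. Striated muscle markers were at 2044 summed FPKM in KPF-2 and at 6.35 to 18.8 in the other libraries. The median log2 fold change of the 6 genes was 6.89, and -1.74 without KPF-2. Of the 6, 2 had a mean under 1 FPKM in WPF and entered the test through KPF, so nothing is drawn from these medians.

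Cholangiocyte markers ranged from 12.7 to 18.7 in KPF and from 12.3 to 35.2 in WPF, with a median of 0.09 over 2 tested genes. Lymphocyte markers ranged from 5.28 to 7.43 in KPF and from 2.71 to 4.34 in WPF, with a median of 0.98 over 2 genes. Of these 2 genes, 1 had a mean under 1 FPKM in WPF and entered the test through KPF, so nothing is drawn from this median. Neutrophil and monocyte markers ranged from 5.98 to 12.5 in KPF and from 4.60 to 10.9 in WPF, with a median of 0.27 over 3. Erythroid markers ranged from 134 to 663 in KPF and from 54.3 to 499 in WPF, with a median of 0.46 over 5. No gene of these lists was called.

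**Figure D4:**
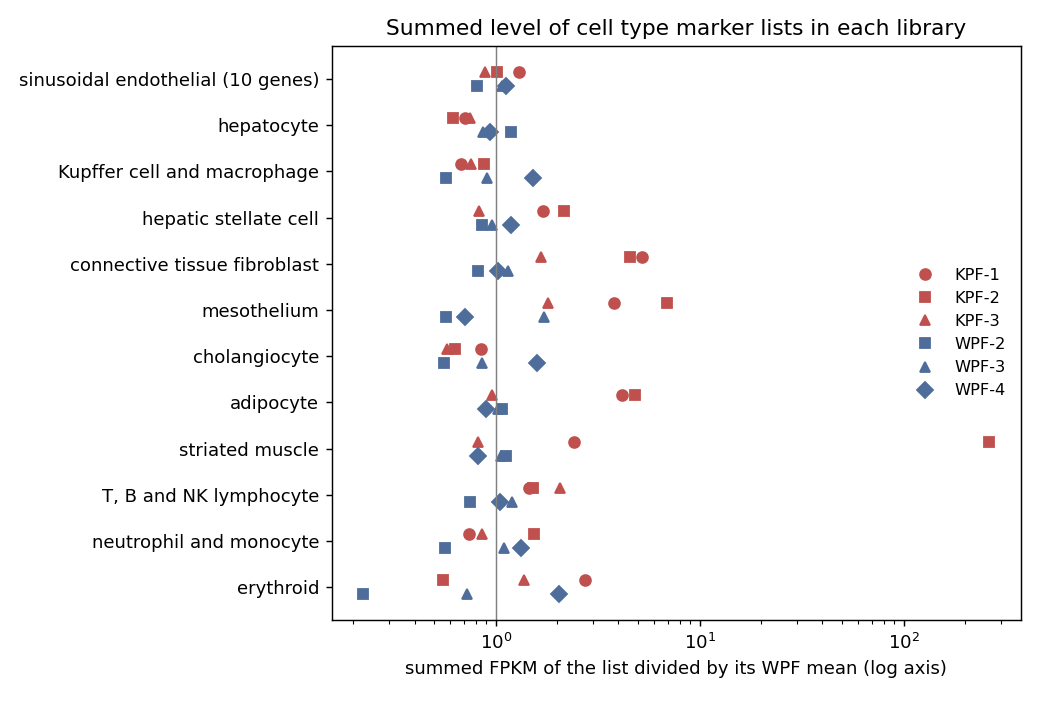
Summed FPKM of the 10 sinusoidal endothelial genes and of 11 marker lists in each library, divided by the WPF mean of the list (horizontal log axis; 1 is the WPF mean). The endothelial sums lie between 0.806 and 1.30 of the WPF mean, while the fibroblast sums of KPF-1 and KPF-2 reach 5.21 and 4.54 and the muscle sum of KPF-2 lies far to the right.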

How the data were processed

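Poly(A) RNA-seq was made from the livers of 3 KPF and 3 WPF dams. For each Ensembl gene the authors deposited raw counts of reads together with FPKM values, which are the counts divided by the exonic length and the counted reads of the library, to within 0.005. The submitters' processing notes name cutadapt 1.9.1, HISAT2 2.2.1, HTSeq 0.6.1, DESeq2 and GRCm39, and the annotation release and strand setting are not given in the sources used here. Symbols were matched for 52073 of 56691 gene IDs. Genes whose FPKM averaged 1 or more were tested in edgeR 4.0.16 under R 4.3.3 by its quasi-likelihood method with TMM and Benjamini-Hochberg adjustment, and the test was tried on simulated counts. limma 3.58.1 and DESeq2 1.42.0 served as alternatives, beside other scalings, filters, left-out libraries and a replicate block. Centred values are log2(CPM + 0.5). The members, the wider list and the marker lists were chosen with earlier results of these data known.

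Named outside the 10 members were, in each group of the wider list, up to 3 tested genes with the smallest p and the most abundant, the most abundant gene of a marker list, the 10 nearest genes by profile, overlapping genes and *Mlxipl*. *Lep*, *Des*, *Bgn*, *Col1a1*, *Col1a2* and *Thy1* were named after their values were seen. Libraries of a group were checked for duplicated files only, and none held the same counts (chi-square per gene of 48.1 or more). Each dam is a separate animal by the study's methods, and 3 against 3 dams limits the precision of each value. Depth was 10694496 to 14496630 counted reads.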

Additional observations from a re-analysis of the deposited data

How the results depend on the processing

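The median log2 fold change of the 10 genes, 0.16, was 0.039 with library totals, 0.028 and 0.036 by limma on log2(FPKM + 1) and log2(FPKM + 0.1), and 0.39 over the 3 genes left at a minimum of 5 FPKM. It lay between 0.07 and 0.25 with any 1 library left out. Without KPF-1 and KPF-2 together, chosen after seeing the data, it was 0.05, with the 1 KPF library left assumed to vary like the others. *Pecam1*, at 0.75, was at 0.62 with library totals, 0.39 and 0.57 by limma with 1 and 0.1 added, and 0.51 without KPF-1 and KPF-2, and was not tested at 5 FPKM. *Stab2*, *Fcgr2b*, *Pecam1* and *Dnase1l3* changed sign under none of the alternatives, and the other 6 under 1 to 5.

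In the wider list the 6 genes called higher became 2 with library totals, 1 and 0 by limma with 1 and 0.1 added, 12 without a filter, 2 at 5 FPKM, 0 without KPF-1 and KPF-2, and 1 to 9 with 1 library left out (1 without WPF-2, 2 without KPF-1). The 1 called lower became 2 with library totals, 2 by limma with 0.1 added, 0 at 5 FPKM, and 0 to 2 with 1 library left out (0 without KPF-1, WPF-2 or WPF-3). At an adjusted p under 0.05 the 0 genes became 1 by DESeq2 and 1 without a filter.

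Over all genes, the 634 called higher and 432 called lower became 371 and 716 with library totals, 238 and 552 by limma with 1 added, 257 and 681 with 0.1 added, 1576 and 910 without a filter, 255 and 205 at 5 FPKM, and 320 and 256 without KPF-1 and KPF-2. With 1 library left out they were 324 to 910 and 246 to 709. The 0 calls at an adjusted p under 0.05 became 156 by DESeq2, 1 by limma with 0.1 added, 286 without a filter and 0 to 5 with 1 library left out (5 without WPF-4). The cause of these shifts was not tested.

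Libraries with the same replicate number in both groups shared little of their deviation (correlation of deviations 0.07 for number 2 and -0.02 for number 3). This cannot show whether the samples were paired or handled together. With the replicate block the median of the 10 genes was 0.040, the wider list had 1 gene called higher and 2 lower, and all genes had 680 and 551. Numbers 1 and 4 occur in a single group each, so the blocked difference rests on KPF-2, KPF-3, WPF-2 and WPF-3.

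Without division by exonic length, the order of levels reversed for *Clec4g* over *Stab1* (-1.82), *Dnase1l3* over *Stab2* (-0.64) and *Oit3* over *Kdr* (-1.25), in log2. These 3 reversed differences passed the exact permutation test (adjusted p = 0.0352), as did 5 in the same order: *Stab1* over *Fcgr2b* (1.26), *Fcgr2b* over *Dnase1l3* (0.67), *Stab2* over *Gpr182* (1.42), *Pecam1* over *Oit3* (1.20) and *Kdr* over *Lyve1* (2.11). In each of these pairs the gene with more reads was also the longer, and length is the same in every library. A pass on this scale therefore cannot be read as a difference in expression alone.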
